A study of Oryza sativa with 45 samples.

Results

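Of the 54922 probe sets of a rice expression array, 3 gave transcripts that stood well above the seed-derived control in both lines with a history of tissue culture. The members were chosen by their values in the arrays grown without salt. They were named as higher in the transgenic line Ta and in the negative segregant NSb than in the control C in generations F4, F6 and F8. The study that reported them listed transcripts at a fold change of 3 or more. Other probe sets were also higher in all 6 of these differences, but only the 3 members had all 6 above 3-fold. As 3-fold is the study's own threshold, this describes the choice and is no separate result. The 3 are probe set 15821435, at LOC_Os01g35330, probe set 15859723, at LOC_Os11g31630, and probe set 15873807, at Os12g0428300. The study asked how long differences set up by in vitro culture last over generations, and how they compare with those caused by salinity.

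All plants were Oryza sativa ssp. japonica, cultivar Nipponbare. Ta came from Agrobacterium-mediated transformation and carries 1 copy of the rice transcription factor gene ICE1 (inducer of CBF expression 1), fused to a TAP tag and driven by the maize ubiquitin promoter. NSb descends from another transformation event, Tb, whose construct held ICE1 without the tag, and it lost the transgene by segregation. C was raised from seed and never passed through culture or transformation. Each line is 1 line, so a difference between Ta or NSb and C is a difference from that 1 control. Seedlings grew for 13 days in Yoshida medium, at 28 °C in the light and 24 °C at night. They were collected whole at an age of 15 days, and each array holds RNA from a pool of 10 of them. The 45 arrays make up 15 conditions with 3 pools each. These are the 3 lines in F4, in F6, in F6 after 12 days at a salinity of 12 dS per m, in F8, and in F8 from ancestors that had been salinised in F6 (salt history). F8 seedlings with salt history were not described as salinised themselves.

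Plant cells regenerated through culture often carry heritable changes, known as somaclonal variation, that include mutations, transposed elements and altered DNA methylation. Silencing of retrotransposons by DNA methylation and small RNAs is known to loosen in cultured rice cells, where the retrotransposon Tos17 becomes mobile. A retrotransposon encodes a gag protein, which forms the particle around its RNA, and a polymerase that copies the RNA back into DNA.

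The array annotation, which takes its LOC_Os names from the MSU release 6 gene models, places the 3 loci on different chromosomes, all on the minus strand. Os12g0428300 is not named as such a model. LOC_Os01g35330 (chromosome 1, 19548097 to 19549307, 11 probes) is named circumsporozoite protein precursor, putative. The name is that of a surface protein of malaria parasites, and no function in rice is attached to it here. LOC_Os11g31630 (chromosome 11, 18029726 to 18031736, 12 probes) is a conserved hypothetical protein, to which the study adds the name HrpA-like helicases, enzymes that unwind RNA. RefSeq lists its counterpart LOC9266959 as a long non-coding RNA. Os12g0428300 (chromosome 12, 13663510 to 13668710, 15 probes) is described by the array annotation as an mRNA with a complete coding sequence. The name retrotransposon gag protein family protein is the study's. The positions are those of the transcripts that the probe sets cover, and the coordinates were not checked against a genome. No other probe set had the values of any of the 3.

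The transgene probe sets set Ta apart from the other lines. Hygromycin phosphotransferase, the selection marker, lay between 10.71 and 11.65 on the log2 scale in the 15 Ta arrays. It lay between 3.09 and 3.90 in the 15 NSb arrays and between 3.15 and 3.91 in the 15 C arrays. ICE1 had a median of 9.27 in Ta, against 5.68 in NSb and 5.59 in C. These genes check the label of Ta only, since NSb and C are alike for both. Both shoot and root markers were read in these whole seedlings. The condition means of the 5 shoot markers matched ran from 5.37 to 11.22, and those of the 4 root markers from 2.98 to 10.75. The lowest, 2.98 for the root marker NRT2.1, was below the array medians, so this marker was not clearly read in every condition. In whole seedlings, more cells of a type and more RNA per cell cannot be told apart. Array medians were 4.46 to 4.50 in F4, 4.14 to 4.22 in F6 and 4.53 to 4.58 in F8, and no level was set against that of another generation.

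LOC_Os01g35330 read well above the array medians in C too. In F4 its 3 arrays read 8.39, 8.63 and 8.58 in Ta and 8.66, 8.46 and 8.49 in NSb, against 6.41, 6.69 and 6.48 in C. In F6 without salt they read 8.63, 8.68 and 8.76 in Ta and 8.73, 8.76 and 8.49 in NSb, against 6.76, 6.46 and 6.20 in C. In F8 they read 9.39, 9.62 and 9.61 in Ta and 9.27, 9.49 and 9.51 in NSb, against 7.70, 7.14 and 6.74 in C. Ta and NSb overlapped in each of these generations, and every one of their arrays lay above every C array. C arrays were the more scattered in F8, with an SD of 0.48 against 0.13 in Ta and in NSb. As a description of the choice, the differences from C ran from 2.01 to 2.35, which is 4.02-fold to 5.09-fold.

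LOC_Os11g31630 showed the widest separation. In F4 it read 8.70, 8.66 and 8.69 in Ta and 8.71, 8.58 and 8.70 in NSb, against 5.14, 5.27 and 4.47 in C. In F6 without salt it read 8.05, 8.16 and 8.39 in Ta and 8.15, 8.02 and 8.26 in NSb, against 4.26, 4.78 and 4.22 in C. In F8 it read 9.25, 9.10 and 9.23 in Ta and 8.99, 9.02 and 8.91 in NSb, against 4.20, 4.61 and 4.61 in C. C values sat near the array medians, at percentiles 42.8 to 64.5 of their arrays over the 5 settings, while those of Ta lay at percentiles 94.98 to 97.6 and those of NSb at 95.1 to 97.1. The differences used for the choice were 3.73, 3.78 and 4.72 for Ta and 3.71, 3.73 and 4.50 for NSb in F4, F6 and F8. They correspond to 13.1-fold at the least and 26.3-fold at the most.

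Os12g0428300, the gag family transcript, read low in C. In F4 it read 6.56, 6.64 and 6.67 in Ta and 6.38, 6.51 and 6.69 in NSb, against 4.12, 3.40 and 3.32 in C. In F6 without salt it read 6.61, 6.73 and 6.79 in Ta and 6.96, 6.74 and 6.66 in NSb, against 3.99, 3.95 and 3.52 in C. In F8 it read 6.89, 6.70 and 6.76 in Ta and 6.82, 6.77 and 6.90 in NSb, against 3.96, 3.79 and 4.12 in C. Every C value lay below the median of its array, at percentiles 28.2 to 47.2. No detection calls were used here, so whether C carried this transcript at all was not settled, and a fold change against such values can understate a ratio. The differences used for the choice ran from 2.83 to 3.01, or 7.10-fold to 8.04-fold.

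**Figure D1:**
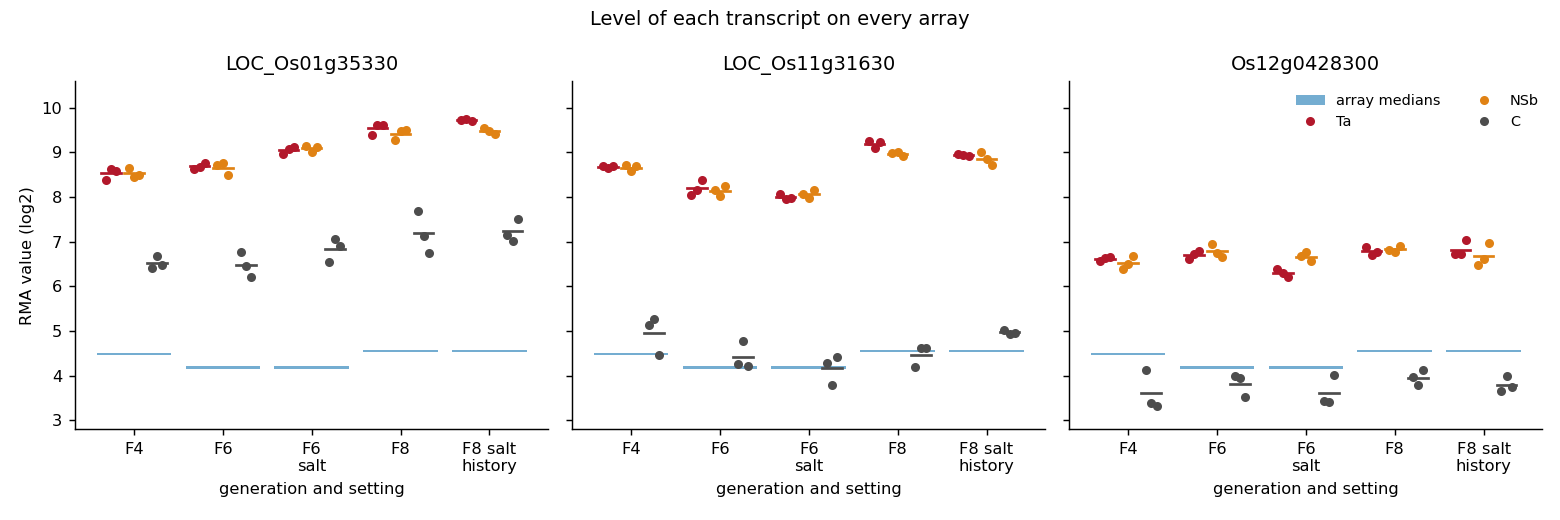
RMA values (log2, vertical axis) of the 3 transcripts on every array by generation and setting, with Ta, NSb and C from left to right in each setting; points are pools of 10 seedlings, short lines are means of 3 pools, and the blue bands span the array medians. In each setting all Ta and NSb points lie above all C points, and those of Os12g0428300 in C lie below the array medians.

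The 18 arrays grown under salt or from salinised ancestors had no part in the choice, so the line differences could be tested there. Each of the 3 transcripts was higher in both Ta and NSb than in C in all of them. Tests were made with limma across all probe sets, and a probe set was called at a Benjamini-Hochberg adjusted p below 0.05. The spread in each test, and so its SE and p, came from all 18 arrays of the generation. These include the arrays that chose the members. With only the compared groups in the fit, all 12 differences were still called, with limma adjusted p-values of up to 0.00445. Under salt in F6, 3 of 3 members were called higher in Ta than in C, where 0.193% of all probe sets were called higher. For NSb against C under salt, 3 of 3 were called, against 0.0765% of all probe sets. With salt history in F8, 3 of 3 were called higher in Ta, against 0.364% of all, and 3 of 3 in NSb, against 0.0728% of all.

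Under salt, LOC_Os01g35330 read 8.96, 9.07 and 9.13 in Ta and 9.14, 9.02 and 9.12 in NSb, against 6.55, 7.06 and 6.90 in C. The difference was 2.22 ± 0.14 for Ta (SE, 3 against 3 arrays, limma adjusted p = 5.17e-07) and 2.25 ± 0.14 for NSb (limma adjusted p = 2.26e-07). These are 4.65-fold and 4.77-fold. With salt history it read 9.73, 9.74 and 9.71 in Ta and 9.54, 9.48 and 9.41 in NSb, against 7.16, 7.02 and 7.51 in C. The difference was 2.50 ± 0.18 for Ta (limma adjusted p = 1.70e-06) and 2.25 ± 0.18 for NSb (limma adjusted p = 6.77e-06).

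LOC_Os11g31630 under salt read 8.08, 7.96 and 7.97 in Ta and 8.07, 7.97 and 8.16 in NSb, against 4.29, 3.80 and 4.41 in C. It was 3.83 ± 0.16 higher in Ta, or 14.3-fold (limma adjusted p = 2.90e-09), and 3.90 ± 0.16 higher in NSb, or 14.9-fold (limma adjusted p = 2.26e-09). With salt history it read 8.96, 8.94 and 8.92 in Ta and 9.004, 8.86 and 8.71 in NSb, against 5.02, 4.94 and 4.95 in C. Here the difference was 3.97 ± 0.10 for Ta (limma adjusted p = 2.54e-12) and 3.89 ± 0.10 for NSb (limma adjusted p = 7.00e-12). The C arrays with salt history agreed closely, with an SD of 0.05.

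Os12g0428300 under salt read 6.38, 6.31 and 6.22 in Ta and 6.68, 6.77 and 6.56 in NSb, against 3.44, 3.42 and 4.01 in C. It was 2.68 ± 0.15 higher in Ta, or 6.43-fold (limma adjusted p = 1.41e-07), and 3.05 ± 0.15 higher in NSb, or 8.31-fold (limma adjusted p = 1.37e-08). All Ta arrays were below all NSb arrays in this setting. With salt history it read 6.72, 6.73 and 7.03 in Ta and 6.47, 6.61 and 6.97 in NSb, against 3.66, 3.99 and 3.75 in C. The difference was 3.02 ± 0.13 for Ta (limma adjusted p = 4.41e-09) and 2.88 ± 0.13 for NSb (limma adjusted p = 8.98e-09).

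In all 15 pairings of a transcript with a setting the lowest Ta or NSb array was above the highest C array. The gap was smallest for LOC_Os01g35330 in F8, at 1.58, and widest for LOC_Os11g31630 in F8, at 4.30. Pools are the replicates here, so p-values measure the spread between pools of 1 line and not between independent transformation events.

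**Figure D2:**
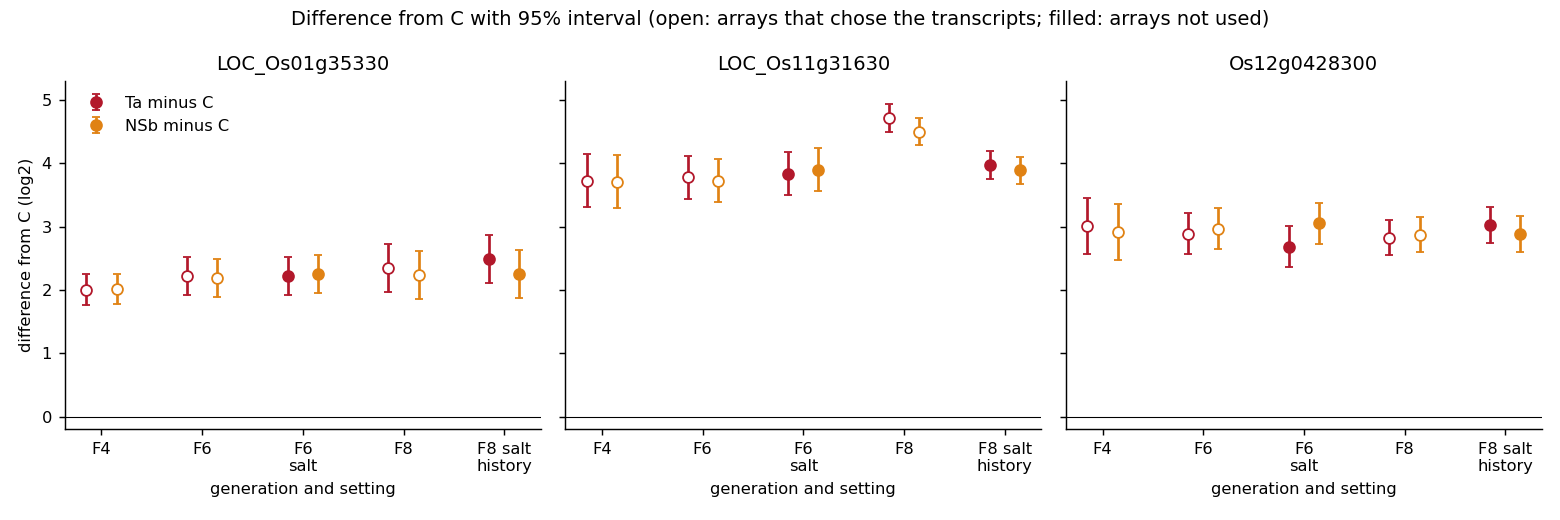
Differences of Ta and of NSb from C (log2, vertical axis) in the 5 settings, with 95% intervals from limma; open symbols are the arrays that chose the transcripts and filled symbols those that did not. The filled differences lie between 2.22 and 3.97, and Ta and NSb lie side by side in most settings.

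Ta and NSb share an ancestry of culture and of Agrobacterium-mediated transformation, but not the transgene. This comparison thus sets the transgenic line against a line free of the transgene. Ta and NSb come from separate transformation events. None of the 3 transcripts was called between Ta and NSb in any of the 5 settings. The counts of members were 0 of 3 in F4 (0.071% of all probe sets called in either direction), 0 of 3 in F6 (0.169%), 0 of 3 in F6 under salt (0.135%), 0 of 3 in F8 (0.832%) and 0 of 3 in F8 with salt history (0.457%). Values of Ta and NSb overlapped in 12 of the 15 pairings of a transcript and a setting. In F4, F6 and F8 without salt these are arrays in which both lines were chosen to be high, so their likeness there, and that in a mean over the settings, is no independent result. The salt and salt history arrays were not used for the choice. The 3 pairings without overlap were LOC_Os01g35330 with salt history, LOC_Os11g31630 in F8 without it, both higher in Ta, and Os12g0428300 under salt, lower in Ta.

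The last of these was the widest difference between the culture-derived lines. Os12g0428300 averaged 6.30 ± 0.08 in Ta and 6.67 ± 0.11 in NSb under salt (SD, n = 3 each). Ta minus NSb was -0.37 (95% interval -0.69 to -0.05). It was not called (limma adjusted p = 0.488). Over the 5 settings together, Ta minus NSb was 0.07 for LOC_Os01g35330 (95% interval -0.07 to 0.21), 0.06 for LOC_Os11g31630 (-0.08 to 0.20) and -0.05 for Os12g0428300 (-0.20 to 0.09). No member was called for this mean, where 2.75% of all probe sets were. The lowest of the 3 limma adjusted p-values was 0.747. These intervals reach 0.21 in either direction.

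Differences with salt were far smaller than those between lines. The members were chosen for wide line differences and not for a salt response, so this contrast is not independent of that choice. LOC_Os01g35330 under salt differed from no salt by 0.36 in Ta, 0.43 in NSb and 0.37 in C, and salt and unsalted arrays overlapped in C only. Averaged over the lines it was 0.39 ± 0.08 higher, or 1.31-fold (limma adjusted p = 0.00167). It was the single call among the 3 members for the mean response, where 26.9% of all probe sets were called. Within a line, 1 of 3 members was called in NSb, again LOC_Os01g35330 (limma adjusted p = 0.0464), where 15.4% of all were. In Ta 0 of 3 were called, where 10.5% of all were, and in C 0 of 3, where 9.68% of all were. The NSb call was lost with any 1 of 14 of the 18 arrays left out, and kept without C replicate 1 or 3 or salted C replicate 1 or 2. LOC_Os01g35330 was called in C without C replicate 1 (0.51, limma adjusted p = 0.0382) or salted C replicate 1 (0.51, limma adjusted p = 0.0296), and in Ta when the fit held Ta alone (limma adjusted p = 0.0395). The unsalted arrays in these comparisons are among those that chose the members.

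The other 2 members had negative differences under salt. That of Os12g0428300 was -0.41 in Ta (95% interval -0.73 to -0.08, limma adjusted p = 0.110), with all 3 salt arrays below all 3 unsalted ones. It was called with only the Ta arrays in the fit (limma adjusted p = 0.0299) or without salted C replicate 3 (limma adjusted p = 0.0453). In NSb its difference was -0.11 and in C -0.20, and in both the salt arrays overlapped the unsalted ones. The mean over the lines was -0.24 ± 0.09 (limma adjusted p = 0.0535), which was called under 3 alternative settings, without C replicate 3 (limma adjusted p = 0.0133) and without salted C replicate 3 (limma adjusted p = 0.00562). LOC_Os11g31630 differed by -0.20 in Ta, -0.08 in NSb and -0.25 in C, and its mean of -0.18 did not pass (limma adjusted p = 0.187).

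The difference between line and control did not change detectably under salt. The unsalted differences in these changes are among those that chose the members, so the changes are not independent of that choice. Very few of all probe sets were called, so a count of 0 of 3 says little about the members. The change of Ta minus C was 0.00 for LOC_Os01g35330, 0.05 for LOC_Os11g31630 and -0.20 for Os12g0428300, with 0 of 3 called and 0.00364% of all probe sets called. That of NSb minus C was 0.07, 0.17 and 0.09 in the same order, with 0 of 3 called and 0.00182% of all. The 95% intervals of these 6 changes reach 0.66 in either direction, so shifts of that size are not excluded by these arrays.

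**Figure D3:**
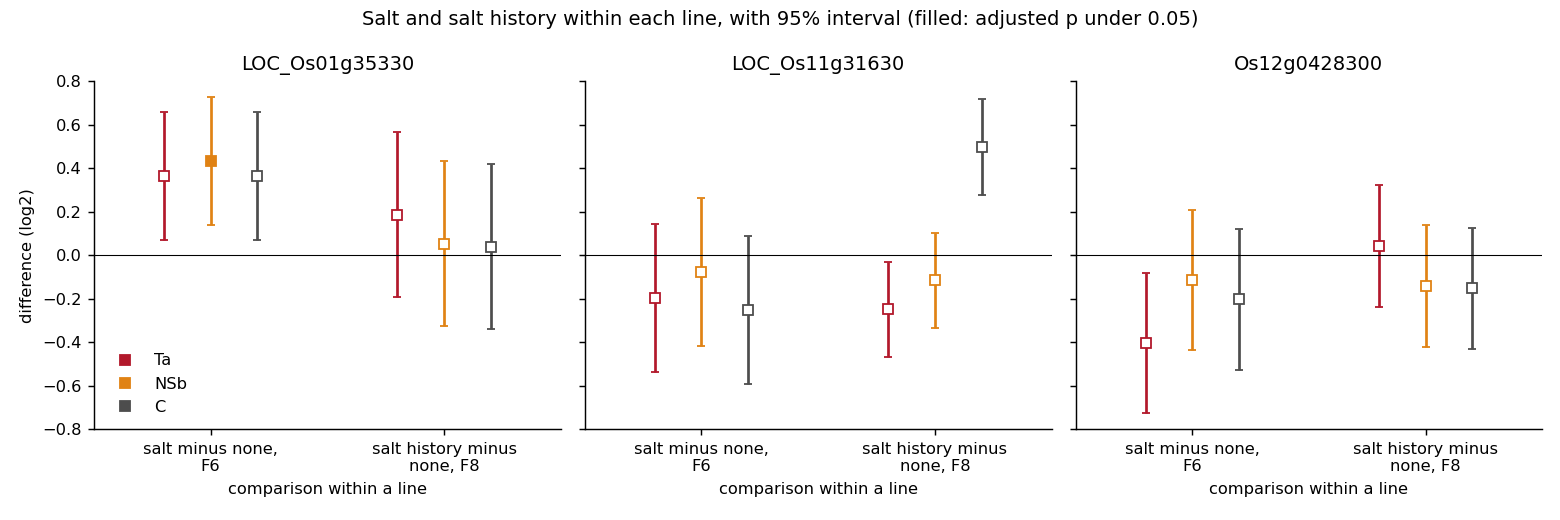
Salt minus no salt in F6 and salt history minus none in F8 (log2, vertical axis) within Ta, NSb and C, with 95% intervals; filled symbols have an adjusted p below 0.05. LOC_Os01g35330 is above 0 under salt in all 3 lines, and the interval of LOC_Os11g31630 in C with salt history, 0.28 to 0.72, lies above 0.

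No member was called for salt history in any line. The F8 arrays without history are among those that chose the members for high Ta and NSb and low C. A smaller line difference in the arrays with history is therefore not independent of that choice. How much the choice added to it was not tested. LOC_Os01g35330 differed by 0.19 in Ta, 0.05 in NSb and 0.04 in C between plants with and without salinised ancestors. In Ta all 3 arrays with history, at 9.71 to 9.74, lay above all 3 without, at 9.39 to 9.62, and in NSb and C they overlapped. Os12g0428300 differed by 0.04, -0.14 and -0.15 in the same lines, with overlap in each. In Ta 0 of 3 members were called (0.031% of all probe sets), in NSb 0 of 3 (0.00364%) and in C 0 of 3 (0%). For the mean over the lines 0 of 3 were called (0.0455%).

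LOC_Os11g31630 had its widest difference with salt history in C, again against arrays used for the choice. C arrays with history read 5.02, 4.94 and 4.95, against 4.20, 4.61 and 4.61 without it. The groups did not overlap, and the difference was 0.50 ± 0.10 (SE, 95% interval 0.28 to 0.72), which was not called (limma adjusted p = 0.346). In Ta the sign was the reverse, at -0.25 ± 0.10 (limma adjusted p = 0.645), with all 3 arrays with history below all 3 without. In NSb it was -0.12 ± 0.10 (limma adjusted p = 0.869), with overlap. The estimated change of the line difference with history was -0.75 for Ta minus C and -0.61 for NSb minus C. Neither change was called (limma adjusted p = 0.686 and 0.710). For these changes 0 of 3 members were called in Ta and 0 of 3 in NSb, as was 0% of all probe sets in each. At an unadjusted p below 0.05 the 2 tests held 2785 and 3170 probe sets.

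The members kept in step across conditions but not within them. After each generation's mean was subtracted, pairs of members correlated over the 45 arrays with Pearson's r of 0.96 to 0.99. All 3 were chosen for the same line difference, which these arrays share. After each condition's mean was subtracted instead, r was 0.27 between LOC_Os11g31630 and Os12g0428300, -0.06 between LOC_Os01g35330 and Os12g0428300 and -0.23 between LOC_Os01g35330 and LOC_Os11g31630. Pools high for 1 member were not regularly high for another.

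The same 5 probe sets were the most like each member over the arrays, with r from 0.90 to 0.97. They were LOC_Os02g26730, LOC_Os07g01904, LOC_Os03g43100, LOC4338260 and the unnamed probe set 15962934. The lowest r was -0.76, between LOC_Os01g35330 and LOC4342941, and no probe set mirrored a member as closely as those 5 followed it. Such likeness describes a shared line pattern.

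When all probe sets were ranked by the smallest of their 6 differences from C without salt, the members took the first 3 places. Their smallest differences were 3.71 for LOC_Os11g31630, 2.83 for Os12g0428300 and 2.01 for LOC_Os01g35330. The next 5 were LOC_Os02g26730, at 1.52, LOC_Os07g01904, at 1.45, LOC_Os03g43100, at 1.37, LOC_Os04g58050, at 1.25, and LOC4338260, at 0.73. The first 4 of these are annotated as hypothetical or expressed proteins without a stated function, and LOC4338260 has no description here. In the salt and salt history arrays each of the 5 was called higher than C in 4 of 4 comparisons. Their differences there ran from 0.73 for LOC4338260 in Ta under salt to 2.42 for LOC_Os04g58050 in NSb with salt history. LOC_Os03g43100, at 2.16 to 2.38 in those arrays, had differences like those of LOC_Os01g35330 there, while its smallest difference without salt was 1.37.

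**Figure D4:**
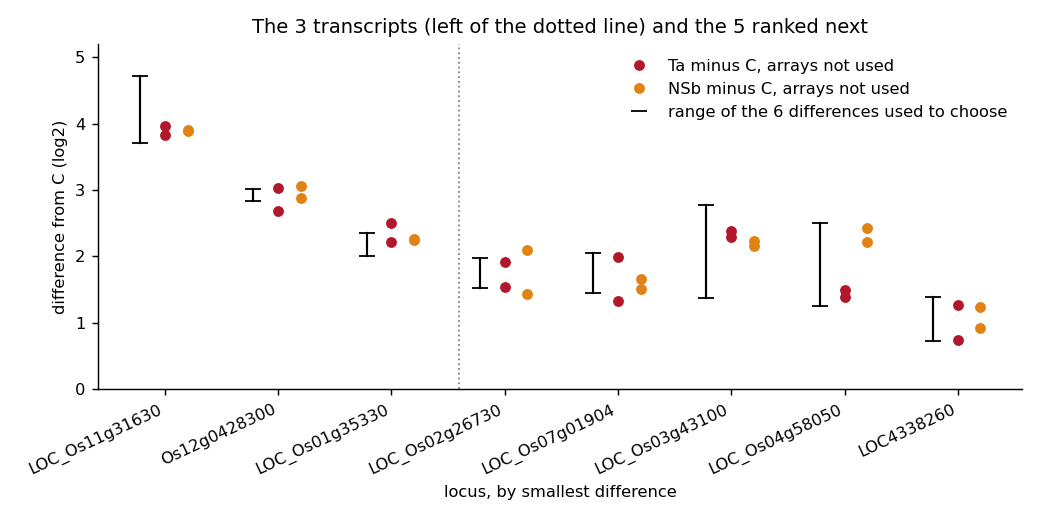
Differences from C (log2, vertical axis) of the 3 transcripts and the 5 ranked after them; black bars span the 6 differences that ranked them, and points are the salt and salt history arrays of Ta and NSb, which were not used. LOC_Os11g31630 lies highest, and the smallest differences fall stepwise to 0.73.

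No probe set among the 10 numbered before and the 10 after each member had a difference from C of the members' size. Numbers follow position on the chromosome and strand: start positions rose in 272 of the 272 pairs of annotated probe sets that could be checked. Over the 5 settings and both lines, the 20 neighbours of LOC_Os01g35330 had differences from C between -0.90 and 0.39, and 0 of 200 tests were called. Those of Os12g0428300 lay between -0.70 and 0.46, with 1 of 200 tests called. It was LOC4352102, lower in NSb than in C in F4 (-0.70, limma adjusted p = 0.0286). Over all probe sets 0.401% of such tests were called.

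Around LOC_Os11g31630 the 20 neighbours had differences between -0.96 and 0.65, with 1 of 200 tests called. This was LOC9270101, the next probe set, higher in Ta than in C with salt history (0.51, limma adjusted p = 0.00708) and 0.10 above C in NSb. The 4 probe sets that follow LOC_Os11g31630, picked out after their values were seen, were above C in 20 of 20 differences in Ta, by 0.21 to 0.65. In NSb 8 of the 20 were positive, between -0.36 and 0.21. The rice plant's own ICE1 locus lies 424 kb further along chromosome 11 in the array's coordinates. The study states that the ICE1 transgene of Ta was inserted on chromosome 1, the chromosome that also holds LOC_Os01g35330. The position of the insertion there is not given here. Of the 20 genes in RefSeq nearest to LOC_Os11g31630 with a probe set, 3 had a call, all higher in Ta. They made up 4 of 200 tests, against 0.401% of such tests over all probe sets and both lines. Ta had more calls than NSb across the array: for the means over settings, 3.49% of all probe sets were higher in Ta and 0.45% in NSb. Whether the calls near this locus exceed those elsewhere in Ta was not tested. LOC4350580 was 1.21 above C in F6 (limma adjusted p = 0.00216) and 1.14 above it in F6 under salt (limma adjusted p = 0.00320), and LOC4350599 was 0.53 above it with salt history (limma adjusted p = 0.0360). LOC9270101 was the other. None of these was called in NSb.

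**Figure D5:**
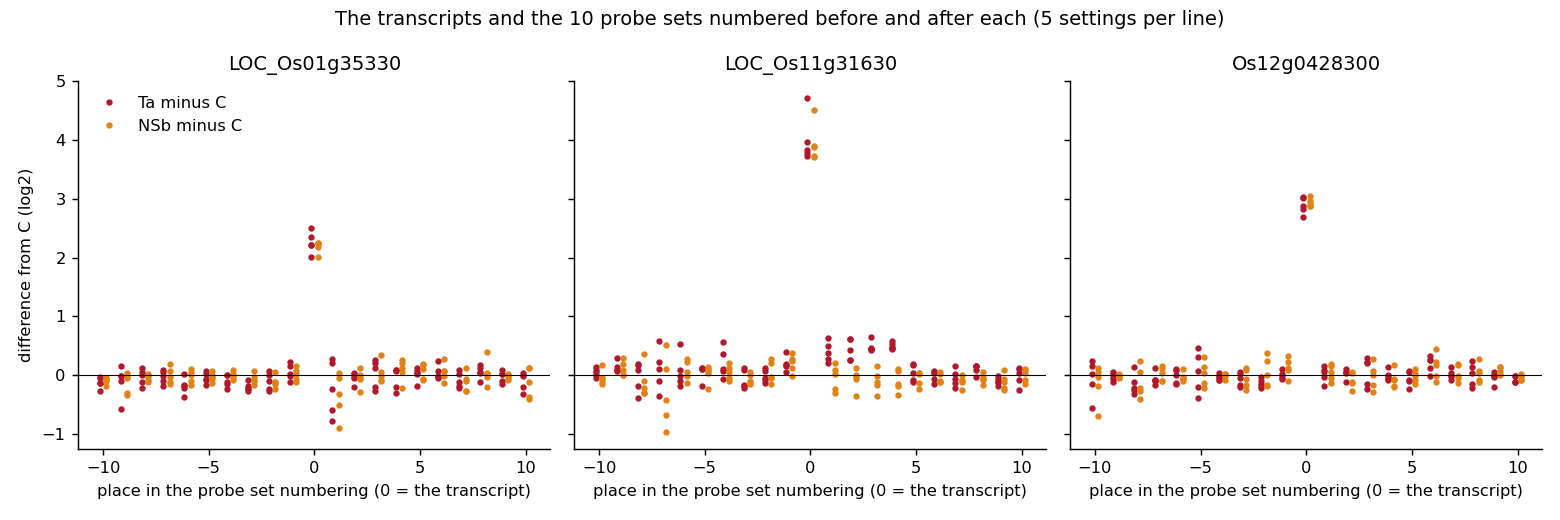
Differences of Ta and NSb from C (log2, vertical axis) for each transcript, at place 0, and the 10 probe sets numbered before and after it; each point is 1 of 5 settings. The transcripts lie at 2.01 to 4.72 and their neighbours between -0.96 and 0.65.

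Genes of the pathways that control retrotransposons were read from a list of 64 names of RNA silencing and DNA methylation genes. Of these, 26 were matched to probe sets. Names without a match were not read, so the list covers those pathways only in part. Averaged over the 5 settings, 7 of the 26 were higher in Ta than in C and 0 were lower, against 3.49% of all probe sets higher and 2.12% lower. The median of the 26 was 0.09, against 0.00 over all probe sets. In NSb 1 was higher and 1 lower, against 0.45% and 0.226% of all, with a median of 0.03. In Ta the list ran from -0.27 to 0.31, and in NSb from -0.55 to 0.26.

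The 4 genes of the list with the widest mean difference over both lines were DNG701, CMT3, RDR4 and SGS3. DNG701, a DNA glycosylase that removes methylated cytosine, was lower in NSb by 0.55 ± 0.11 (limma adjusted p = 0.00509) and read -0.27 ± 0.11 in Ta (limma adjusted p = 0.178). CMT3, a chromomethylase that methylates cytosine outside CG sites, was higher in NSb by 0.26 ± 0.06 (limma adjusted p = 0.0217) and read 0.19 ± 0.06 in Ta (limma adjusted p = 0.0552). RDR4, an RNA-dependent RNA polymerase, was higher in Ta by 0.31 ± 0.06 (limma adjusted p = 0.000849). SGS3, a partner of such polymerases in making small RNA precursors, was higher in Ta by 0.26 ± 0.04 (limma adjusted p = 0.000204). In NSb RDR4 read 0.08 and SGS3 0.12, and neither was called (limma adjusted p = 0.744 and 0.267). Methylation and small RNAs were not measured.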

How the data were processed

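RNA from 45 pools of whole seedlings was hybridised to Affymetrix rice 1.1 ST arrays. The authors normalised and summarised the arrays by RMA in Affymetrix Expression Console (versions not given in the sources used here) and deposited log2 values, which were used unchanged. No depth applies to arrays, and their number limits the precision. Conditions came from the sample titles. Array medians differed between generations, so F4 (9 arrays), F6 (18) and F8 (18) were fitted separately in limma 3.58.1 (R 4.3.3), and all 45 together for means over settings. Empirical Bayes tests were adjusted by Benjamini-Hochberg over all 54922 probe sets and called below 0.05, with no fold minimum. Figures were drawn with matplotlib 3.10.9 and tables made in Python 3.11.15. The fit was tested on simulated data. The members and the gene lists were chosen with earlier results of these data known. Comparisons that chose the members were not tested.

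Named genes were the members, the 5 ranked next, the 5 most and least like each member, called neighbours within 10 places, and the 4 genes of the list with the widest mean difference. For likeness, only the lowest r is printed. Lists of retrotransposon, helicase and circumsporozoite genes could not be matched, as the annotation used here has no descriptions for most probe sets. Alternatives were a minimum fold of 3, filters on SD or level, centred arrays, trended robust variances, other array subsets, a replicate block, and leaving out each array. No sequence is shown.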

Additional observations from a re-analysis of the deposited data

Results flagged for a closer look

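LOC_Os11g31630 was singled out because every C array with salt history lay above every C array without it, while every Ta array with history lay below every Ta array without. The effect of history in Ta minus that in C was -0.75 on the log2 scale (95% interval -1.06 to -0.44). The limma test of this difference gave an adjusted p of 0.686, and 0.405 to 0.896 over its alternatives, so it did not pass. Most of the shift came from C, at 0.50, against -0.25 in Ta. The C arrays without history read 4.20, 4.61 and 4.61. The arrays without history are among those that chose this transcript for low C and high Ta values. Its F8 difference of 4.72 was the widest of those used. A rise in C and a fall in Ta in the other arrays are therefore not independent of that choice. How much the choice added to them was not tested. Each condition has 3 pools and 1 line, and whether the salt history or the pool and growth of these plants moved with it was not tested.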

How the results depend on the processing

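The 12 differences from C under salt or with salt history were called in all alternatives, the lowest being 2.07 and the highest limma adjusted p 0.00445. No called value changed sign. Calls for salt history, between Ta and NSb, and for changed line differences stayed at 0 throughout. The salt response within lines, with 1 call of 9, had 0 calls with a minimum fold of 3, with the SD filter of 10%, with centred arrays and with a replicate block, 3 when each fit held only the groups compared, and 0 to 2 when 1 array was left out. The mean salt response over the lines, with 1 call of 3, had 0 with the minimum fold, 2 with the filter on low values, with centred arrays or with all 45 arrays in 1 fit, and 1 to 2 when 1 array was left out. The cause was not tested. Same-numbered pools did not deviate together (r from -0.22 to 0.28 over 99 pairs), so the block has no basis in a pairing, and it changed no other call. With 3 pools a condition and 1 line of each kind, culture, transformation and line cannot be told apart. C values of Os12g0428300 lay below the array medians, and no detection calls were used here.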
